A study of Mus musculus with 8 samples.

Results

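The regions described here are the telomere-end 5 Mb of the 19 mouse autosomes. They hold the autosomal array positions whose start lay within 5000000 bases of the highest start on the same chromosome, a choice by position alone, and make up 19 of the 485 windows of 5 Mb with at least 20 positions on the autosomes. Together they held 11264 of 220065 autosomal positions (5.12%), between 418 on chromosome 17 and 824 on chromosome 15. Each was set against the remaining positions of its own chromosome on the same array. Genomic DNA was measured by comparative hybridisation on an Agilent mouse array of oligonucleotides, of 45 to 60 bases at the autosomal positions. Test DNA and reference DNA carry different dyes, and the log2 ratio of test over reference reports relative DNA copy number. The arrays hold 6 hepatocellular carcinomas from male C57BL/6 mice transgenic for FEAT, aged 16, 21, 20, 18.5, 22 and 12 months, numbered 1 to 6 below. A liver without tumour of 1 FEAT transgenic male of 13 months (the FEAT non-tumour liver) and the liver of 1 wild-type male of 6 months (the wild type), of the same strain, had 1 array each. All 8 arrays shared one reference, the normal liver DNA of a wild-type C57BL/6 mouse of 6 months. The labels do not name the promoter that drives the transgene, and nothing in them counts the normal cells within a tumour. The labels place tumour 1 in the right and left lobes and give lung metastasis for tumour 4.

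Telomeres are the repeat arrays that cap chromosomes, and the unique sequence beside them is the last part of a chromosome that an array can read. Mouse autosomes carry the centromere at one end, so that each has one far end, and that end is what these windows cover. In tumours, unbalanced translocations, breakage and fusion of uncapped ends and gain or loss of whole arms can change the copy number of the end of a chromosome. If every cell carried the change, loss of 1 of 2 copies would give -1 and gain of 1 copy 0.585 on the log2 scale.

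Some array positions are shown with their letters, to show what was read at these ends. The first 5 lines give the position with the highest start in 2 of the 3 windows that stood highest (chromosomes 17 and 3) and in the 3 that stood lowest (chromosomes 9, 15 and 4) against the rest of their chromosome in tumours, since these are the last bases measured. The next 4 lines give the positions of highest and lowest GC content in the chromosome 17 and chromosome 4 windows, since GC content moved with the ratios. The last 3 lines give positions named for Igf2, Phlda2 and Nphp4 that lay below -2 in the FEAT non-tumour liver, and these 3 were chosen after their values were seen. Capitals mark G and C. The letters run 5′ to 3′ as the array design gives them, and neither the strand nor the genome build is given in the sources read here.
Chromosome 17 last position, chr17:93273882-93273941: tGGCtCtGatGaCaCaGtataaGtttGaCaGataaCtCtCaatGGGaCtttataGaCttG
Chromosome 3 last position, chr3:159845169-159845228, named Gpr177: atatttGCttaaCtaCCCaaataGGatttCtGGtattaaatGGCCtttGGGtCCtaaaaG
Chromosome 9 last position, chr9:123827648-123827707: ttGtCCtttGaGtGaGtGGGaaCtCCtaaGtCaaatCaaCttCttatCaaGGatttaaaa
Chromosome 15 last position, chr15:103643399-103643458: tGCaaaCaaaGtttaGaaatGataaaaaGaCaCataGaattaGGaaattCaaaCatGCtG
Chromosome 4 last position, chr4:155174718-155174773: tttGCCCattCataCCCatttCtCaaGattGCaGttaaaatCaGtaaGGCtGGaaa
Chromosome 17 highest GC, chr17:93229484-93229528, named Mettl4: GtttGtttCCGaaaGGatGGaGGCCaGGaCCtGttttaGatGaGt
Chromosome 17 lowest GC, chr17:88322652-88322711: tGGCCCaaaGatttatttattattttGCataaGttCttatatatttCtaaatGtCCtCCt
Chromosome 4 highest GC, chr4:154801719-154801763: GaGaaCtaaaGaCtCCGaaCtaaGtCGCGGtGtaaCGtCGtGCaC
Chromosome 4 lowest GC, chr4:155136827-155136886: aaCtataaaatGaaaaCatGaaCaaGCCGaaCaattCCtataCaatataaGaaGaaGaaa
Igf2 position, chr7:139078498-139078557: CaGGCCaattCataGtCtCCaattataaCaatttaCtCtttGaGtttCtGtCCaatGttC
Phlda2 position, chr7:139928828-139928887: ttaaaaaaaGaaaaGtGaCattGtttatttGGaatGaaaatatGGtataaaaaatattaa
Nphp4 position, chr4:151527145-151527202: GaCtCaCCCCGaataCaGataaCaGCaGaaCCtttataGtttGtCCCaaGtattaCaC

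Single positions were noisy beside a window. The last position of chromosome 15 lay 0.35 ± 0.63 above the rest of its chromosome (mean and SD, n = 6 tumours), on 17 G or C among its 60 bases. The last position of chromosome 4 lay 0.013 ± 0.12 above its own. The Mettl4 position, with 46.7% GC, was low in every tumour, at -0.56 ± 0.19, and lay at -0.72 in the FEAT non-tumour liver and -0.29 in the wild type. In the window around it, the mean over 418 positions was above the rest of chromosome 17. The noise between neighbouring positions within the terminal windows was 0.22 to 0.49 in tumours, 0.33 in the FEAT non-tumour liver and 0.22 in the wild type. Outside them it was 0.22 to 0.49, 0.32 and 0.22 in the same order. Tumour 4 had the highest noise of the 8 arrays.

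Averaged over the 19 autosomes, the chromosome ends lay close to the rest. The mean of terminal minus rest was -0.0063, -0.0040, 0.0065, -0.0077, -0.0049 and 0.0018 in tumours 1 to 6, on the log2 scale. It was -0.0018 in the FEAT non-tumour liver and -0.0071 in the wild type. Tumours lay on both sides of 0, 4 below it and 2 above, and both non-tumour livers lay inside their range. Over tumours the mean was -0.0024 ± 0.0055 (SD, n = 6), and an exact two-sided sign-flip test over 64 patterns gave p = 0.344, where the smallest possible is 0.0312. The difference between tumours and the 2 non-tumour livers was 0.0020, from means of -0.0024 and -0.0045 (exact two-sided permutation test over 28 splits, p = 0.786, smallest possible 0.0714). Among 3 tests of single values, adjusted p-values were 0.643 and 0.786 for these and 0.643 for the spread over chromosomes. The split of 6 against 2 cannot reach 0.05, so the p-value of that comparison does not bound the difference.

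The average hid differences between chromosomes, which were small but recurred. The SD of terminal minus rest over the 19 autosomes was 0.038, 0.029, 0.017, 0.054, 0.021 and 0.026 in tumours 1 to 6, against 0.025 in the FEAT non-tumour liver and 0.019 in the wild type. Tumours averaged 0.0091 more than the non-tumour livers, with 4 of 6 tumours above both (exact two-sided permutation test, p = 0.429, n = 6 and 2). Windows elsewhere on the autosomes, each set against the rest of its chromosome, had SDs of 0.021 to 0.059 in tumours, 0.026 in the FEAT non-tumour liver and 0.022 in the wild type, so that chromosome ends varied about as much as other windows of their size. Of 152 values, 1 per end and array, 1 reached 0.1 in size, and 16 reached 0.05. The largest was the end of chromosome 17 in tumour 4.

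**Figure D1:**
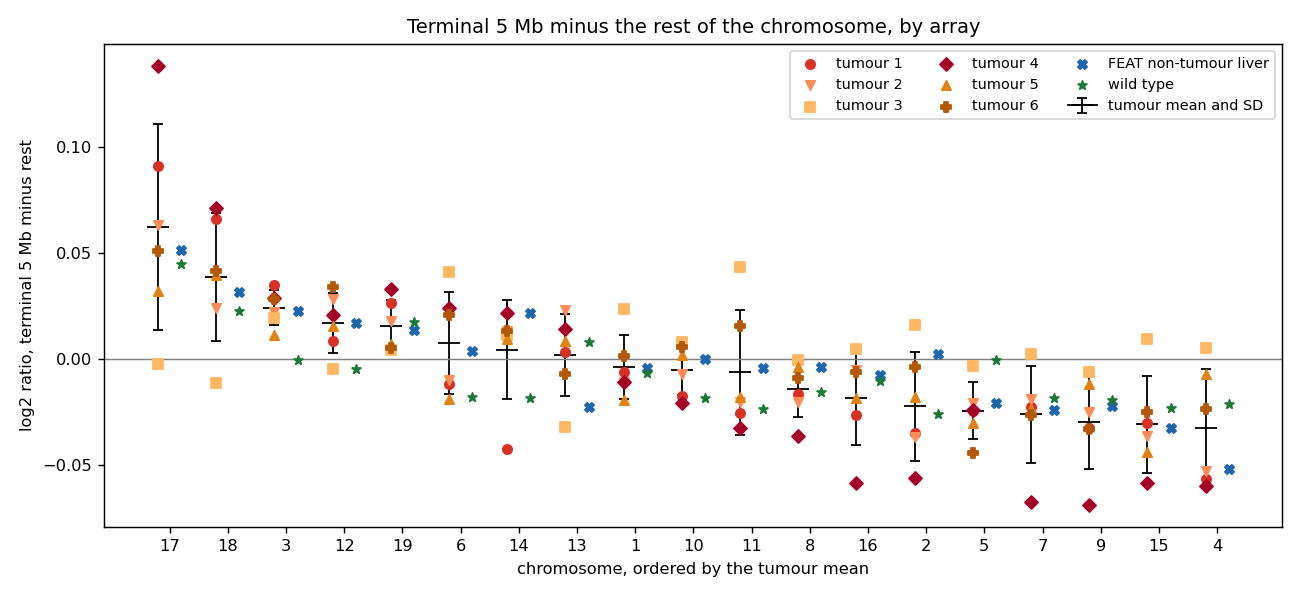
Log2 ratio of the terminal 5 Mb minus the rest of the chromosome (vertical axis) for each autosome, ordered by the tumour mean (horizontal axis). Each point is 1 array, tumours left and non-tumour livers right of each position, with black bars for the tumour mean ± SD (n = 6). Chromosome 17 stands highest, up to 0.14 in tumour 4, and the non-tumour livers lie between -0.052 and 0.051.

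In tumours, 5 ends rose above the rest of their chromosome and 5 fell below it. A limma fit across all 485 windows tested the tumour mean against 0, the level of the rest of the chromosome, with Benjamini-Hochberg adjustment. It called 246 windows (50.7%) at an adjusted p under 0.05 and 10 of the 19 ends (52.6%), close to that background share. The median size of the tumour mean was 0.018 for the ends and 0.019 for all windows. The test leaves out the spread of the shared reference DNA, and the labels number the tumours without saying that any share an animal.

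That of chromosome 17, chr17:88287037-93273941, was the highest of the 19. It stood at 0.091, 0.063, -0.0026, 0.138, 0.032 and 0.051 in tumours 1 to 6, at 0.051 in the FEAT non-tumour liver and at 0.045 in the wild type. Every array but tumour 3 was above the rest of the chromosome, and the 2 non-tumour livers lay inside the range of the tumours. The limma estimate for tumours was 0.062 ± 0.014 (SE, adjusted p = 0.0053). This window is gene-poor on the array: 12 gene names covered 45.7% of its 418 positions, which lay 10.7 kb apart at the median against 7.33 kb in the rest of chromosome 17. Next in order was the end of chromosome 18, which ranged from -0.012 to 0.071 in tumours with a median of 0.040, and was 0.031 in the FEAT non-tumour liver and 0.023 in the wild type (limma 0.038 ± 0.0096, adjusted p = 0.0081). Tumour 3 was again the lowest and tumour 4 the highest. Above the rest in all 6 tumours stood the end of chromosome 3, chr3:154848367-159845228, from 0.011 to 0.035 with a median of 0.025, with 0.023 in the FEAT non-tumour liver and -0.00046 in the wild type (limma 0.024 ± 0.0057, adjusted p = 0.0069). The ends of chromosomes 12 and 19 passed the threshold narrowly. Chromosome 12 had a median of 0.018 in tumours (-0.0050 to 0.034), 0.017 in the FEAT non-tumour liver and -0.0048 in the wild type (limma 0.017 ± 0.0064, adjusted p = 0.048). Chromosome 19 had a median of 0.012 in tumours (0.0040 to 0.033), 0.013 in the FEAT non-tumour liver and 0.017 in the wild type (limma 0.015 ± 0.0059, adjusted p = 0.0478). Leaving out tumour 1, 2, 4, 5 or 6 ended both of these calls, with estimates from 0.013 to 0.021 for chromosome 12 and from 0.012 to 0.018 for chromosome 19 over all 6 omissions.

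The 3 lowest ends were those of chromosomes 4, 15 and 9. The end of chromosome 4, chr4:150184080-155174773, stood at -0.057, -0.053, 0.0049, -0.060, -0.0075 and -0.024 in tumours 1 to 6, at -0.052 in the FEAT non-tumour liver and at -0.022 in the wild type. Tumour 3 was the one array above 0. The limma estimate for tumours was -0.033 ± 0.0094 (SE, adjusted p = 0.0146), and the adjusted p was 0.0527 without tumour 1 and 0.0509 without tumour 2. At the end of chromosome 15, chr15:98643851-103643458, tumours ranged from -0.059 to 0.0090 with a median of -0.033, against -0.033 in the FEAT non-tumour liver and -0.024 in the wild type (limma -0.031 ± 0.0079, adjusted p = 0.0088). It is gene-rich, with 173 gene names on its 824 positions. On chromosome 9 the end, chr9:118830321-123827707, was below the rest in all 6 tumours, from -0.069 to -0.0061 with a median of -0.029, and had -0.022 in the FEAT non-tumour liver and -0.019 in the wild type (limma -0.030 ± 0.0077, adjusted p = 0.0092). The ends of chromosomes 7 and 5 fell too. Chromosome 7 had a median of -0.023 in tumours (-0.068 to 0.0020), -0.024 in the FEAT non-tumour liver and -0.018 in the wild type (limma -0.026 ± 0.0079, adjusted p = 0.0169). Chromosome 5 had a median of -0.024 in tumours (-0.045 to -0.0033), -0.021 in the FEAT non-tumour liver and -0.00069 in the wild type (limma -0.025 ± 0.0063, adjusted p = 0.0088). The other 9 ends, of chromosomes 1, 2, 6, 8, 10, 11, 13, 14 and 16, had tumour means from -0.023 to 0.0074 and did not pass.

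No end was called different between tumours and non-tumour livers. The same limma fit called 0 of 485 windows for that contrast (0%), with 3 at an unadjusted p under 0.05, none of them an end. Estimates of tumours minus non-tumour livers ran from -0.014 for chromosome 5 to 0.015 for chromosome 6 among the 19 ends, and the smallest unadjusted p was 0.281, for chromosome 3. For chromosome 17 the estimate was 0.014 ± 0.028 (SE, limma adjusted p = 0.997), a standard error larger than the difference. With 2 non-tumour arrays, of different genotype and age, a difference of the size of the SE of any end, 0.011 to 0.028, was not detectable.

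The ends were richer in GC than the rest of the genome by a small amount, and GC content moved with the ratios. Positions in the terminal windows averaged 36.8% GC and those outside 36.6%, and 12 of 19 ends were above the rest of their chromosome. The deposited log2 ratio fell with GC on every array: per 10 percentage points of probe GC, the slope outside the ends was -0.15, -0.16, -0.13, -0.37, -0.11 and -0.096 in tumours 1 to 6, -0.065 in the FEAT non-tumour liver and -0.16 in the wild type. Against the mean GC of positions within 250 kb it was steeper in 7 of the 8 arrays, from -0.25 to -0.80, and -0.071 in tumour 3. Tumour 4, with the steepest slope, was also the array with the widest spread over the ends, and tumour 3, with the flattest regional slope, the one with the narrowest. Between these extremes the order did not hold throughout. The FEAT non-tumour liver had a regional slope of -0.25 and an SD of 0.025, and tumour 5 had -0.31 and 0.021. A link between slope and spread was not tested. The 4 ends at least 0.5 percentage points above their chromosome in GC, those of chromosomes 2, 4, 7 and 11, had tumour means of -0.023, -0.033, -0.026 and -0.0064. Of the other 15 ends, 7 also had tumour means below 0, and the 15 ranged from -0.031 to 0.062. Among these 7 were the next 2 ends in GC, those of chromosomes 15 and 9, which fell just under the limit. They lay 0.495 and 0.438 percentage points above their chromosome in GC, with tumour means of -0.031 and -0.030. Lowest in GC against its chromosome was the end of chromosome 17, at 36.3% against 36.8%. Taken over all ends, 63.6% of terminal and 68.3% of other positions carried a gene name, though at the end of chromosome 18 the share was 37.5 percentage points below the rest of its chromosome. Positions lay 7.40 and 7.88 kb apart at the median, and on the wild-type array the log2 green signal averaged 9.83 ± 1.23 and 9.85 ± 1.24 (SD over 11264 and 208801 positions).

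After regression of each array on probe GC and regional GC, some ends returned to the level of their chromosome and others did not. The limma fit then called 6 of 19 ends (31.6%) and 185 of 485 windows (38.1%). Chromosome 17 kept an estimate of 0.047 (adjusted p = 0.0025), chromosome 18 of 0.036 (adjusted p = 0.0036), chromosome 3 of 0.024 (adjusted p = 0.0036) and chromosome 19 of 0.019 (adjusted p = 0.0193). Chromosome 5 stayed low at -0.025 (adjusted p = 0.0047), and its GC had differed from the rest by only -0.013 percentage points. Chromosome 11 was called higher, at 0.020 (adjusted p = 0.0271), against -0.0064 (adjusted p = 0.580) without the regression. Chromosomes 4 and 7 moved to -0.0016 (adjusted p = 0.871) and 0.00012 (adjusted p = 0.984), and chromosomes 9, 15 and 12 were no longer called, at -0.013, -0.013 and 0.013 (adjusted p = 0.0777, 0.0755 and 0.0943). The mean over the 19 ends became positive in all 6 tumours, from 0.0013 to 0.0090, with 0.0036 in the FEAT non-tumour liver and -0.0013 in the wild type. Averaged over tumours it was 0.0053, at the smallest p the exact sign-flip test allows (p = 0.0312, n = 6), so that the sign of the mean depended on the treatment of GC. Within classes of probe GC, terminal minus rest in tumours was 0.0075 ± 0.012 at 30 to 35%, -0.0037 ± 0.0062 at 35 to 40% and -0.0032 ± 0.0082 at 40 to 45% (SD, n = 6), classes that held 982, 9182 and 831 terminal positions. Below 30% GC, in 138 terminal positions, it was -0.015 ± 0.033. In the 131 terminal positions at 45% GC or more it was 0.031 ± 0.013, above 0 on all 8 arrays.

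**Figure D2:**
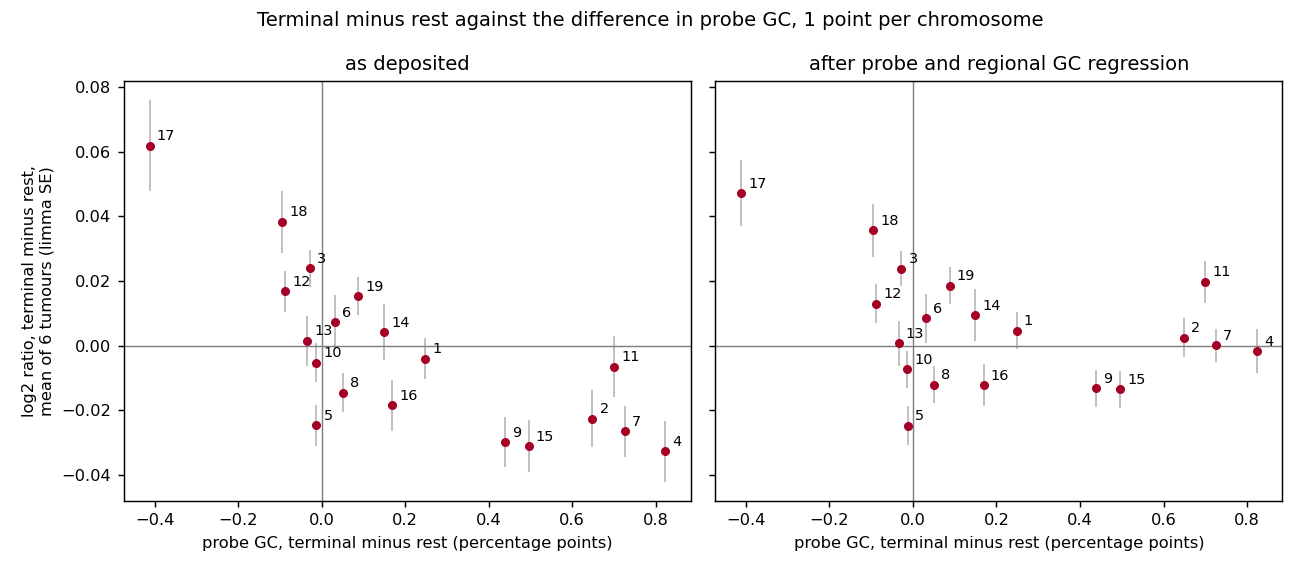
Tumour mean of terminal minus rest (vertical axis, log2, bars are the limma SE, n = 6) against the difference in probe GC between the terminal 5 Mb and the rest (horizontal axis, percentage points), 1 point per autosome with its number. Left are the deposited values and right those after regression on probe and regional GC, where chromosomes 4 and 7 lie at -0.0016 and 0.00012 and chromosome 17 at 0.047.

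The ends took part in the copy-number shifts of whole chromosomes. Levels relative to the autosomal median were at or beyond 0.2 in either direction in 12 of the 114 combinations of end and tumour, and in 0 of 38 in the non-tumour livers. All 12 lay in tumours 1, 4 and 5. In tumour 1, 4 of 19 ends (21.1%) passed, beside 13.2% of all 485 windows. In tumour 4, 2 of 19 ends (10.5%) passed beside 7.42% of all windows, and in tumour 5, 6 of 19 (31.6%) beside 27.8%. Tumour 1 had lower DNA at the ends of chromosome 4 (-0.24, rest -0.18), chromosome 12 (-0.20, rest -0.21) and chromosome 14 (-0.28, rest -0.23), and more at the end of chromosome 15 (0.29, rest 0.32). Tumour 5 had more at the ends of chromosomes 1 (0.30, rest 0.32), 3 (0.21, rest 0.20), 15 (0.22, rest 0.26) and 17 (0.22, rest 0.18), and less at those of chromosomes 7 (-0.28, rest -0.26) and 9 (-0.30, rest -0.29). Each of these ends lay within 0.057 of its own chromosome. Tumour 4 differed: the end of chromosome 17 stood at 0.26 over a rest at 0.12, and the end of chromosome 18 at 0.25 over a rest at 0.18, while the end of chromosome 16 stood at 0.14 under a rest at 0.20. Other windows of tumour 4 lay from -0.13 to 0.20 against the rest of their chromosomes, a range that held these gaps. After regression on probe and regional GC the gap at the end of chromosome 17 was 0.10. In all 20 cases of a chromosome whose rest was shifted by 0.1 or more in a tumour, the end was shifted to the same side. That count was nearly set by the choice of cases, since only 1 of 152 differences between end and rest reached 0.1. The same count was not made for other windows. None of the shifts reached the 0.585 or -1 of a change of 1 copy in every cell, and their share of tumour cells was not measured.

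**Figure D3:**
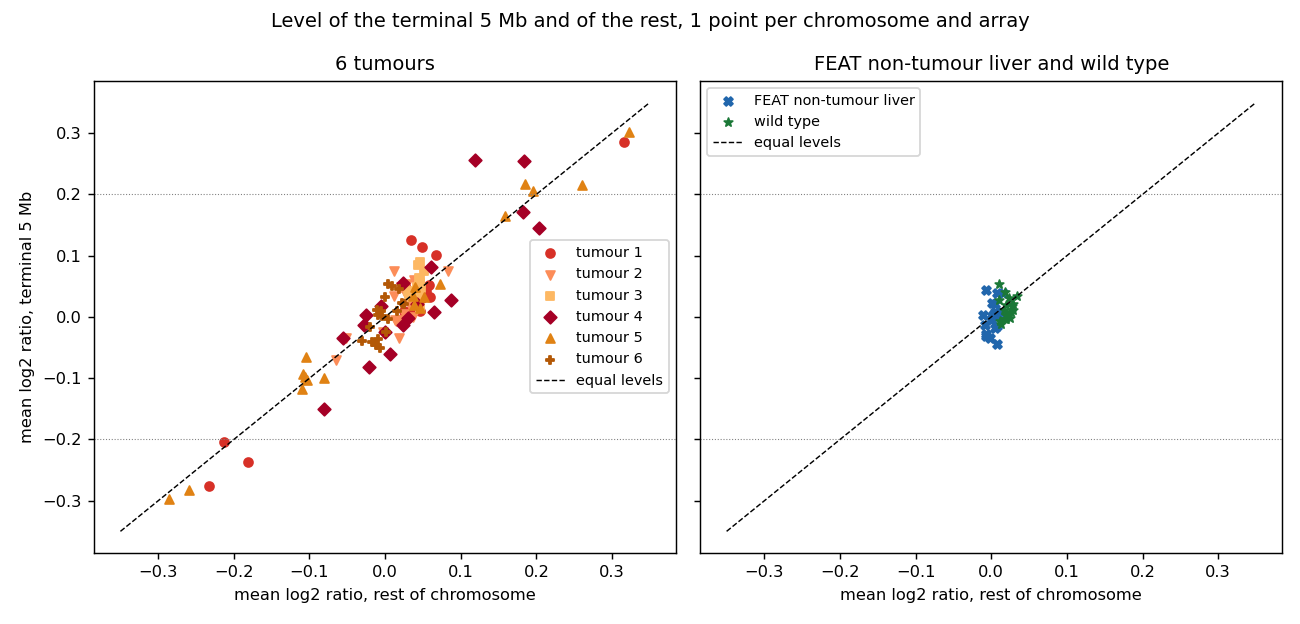
Mean log2 ratio of the terminal 5 Mb (vertical axis) against that of the rest of the chromosome (horizontal axis), 1 point per autosome and array, 6 tumours left and both non-tumour livers right. The dashed line marks equal levels and the dotted lines 0.2 in either direction. Points of tumours 1, 4 and 5 spread along the line between -0.30 and 0.30, and the end of chromosome 17 in tumour 4 lies above it, at 0.26 over 0.12.

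Within the windows, the last 1 Mb stood above the 4 Mb before it, a description for which no test was made. Averaged over the 19 autosomes, 2249 positions in the last 1 Mb lay at 0.021, 0.018, 0.020, 0.046, 0.0025 and 0.026 over the rest of their chromosome in tumours 1 to 6, at 0.026 in the FEAT non-tumour liver and at 0.00034 in the wild type. All 8 arrays were above 0, the wild type and tumour 5 by the least. The next 4 steps of 1 Mb had tumour means of -0.0043, -0.0074, -0.0078 and -0.014, and the 5 steps beyond the window, from 5 to 10 Mb, had means of -0.013 to -0.022. As deposited, the last 1 Mb therefore stood out against a stretch that was itself slightly below the rest. After the regression on probe and regional GC, the last 1 Mb kept a tumour mean of 0.020 ± 0.013 (SD, n = 6), with 0.025 in the FEAT non-tumour liver and -0.0016 in the wild type. The next 4 steps then had tumour means of 0.0072, 0.0039, 0.0020 and -0.011, so that only the step from 4 to 5 Mb was below the rest. By chromosome, the tumour mean of the last 1 Mb was above 0 in 13 of 19. It was highest on chromosome 12 (0.078 ± 0.043, SD, n = 6), chromosome 8 (0.071 ± 0.029) and chromosome 14 (0.069 ± 0.047), and lowest on chromosome 7 (-0.050 ± 0.024) and chromosome 15 (-0.054 ± 0.055). These 3 highest last stretches were above the rest of their chromosome on all 8 arrays. The first 5 Mb of each chromosome, at the centromere end, averaged 0.00092 to 0.013 over the rest in tumours, 0.0086 in the FEAT non-tumour liver and 0.0012 in the wild type.

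**Figure D4:**
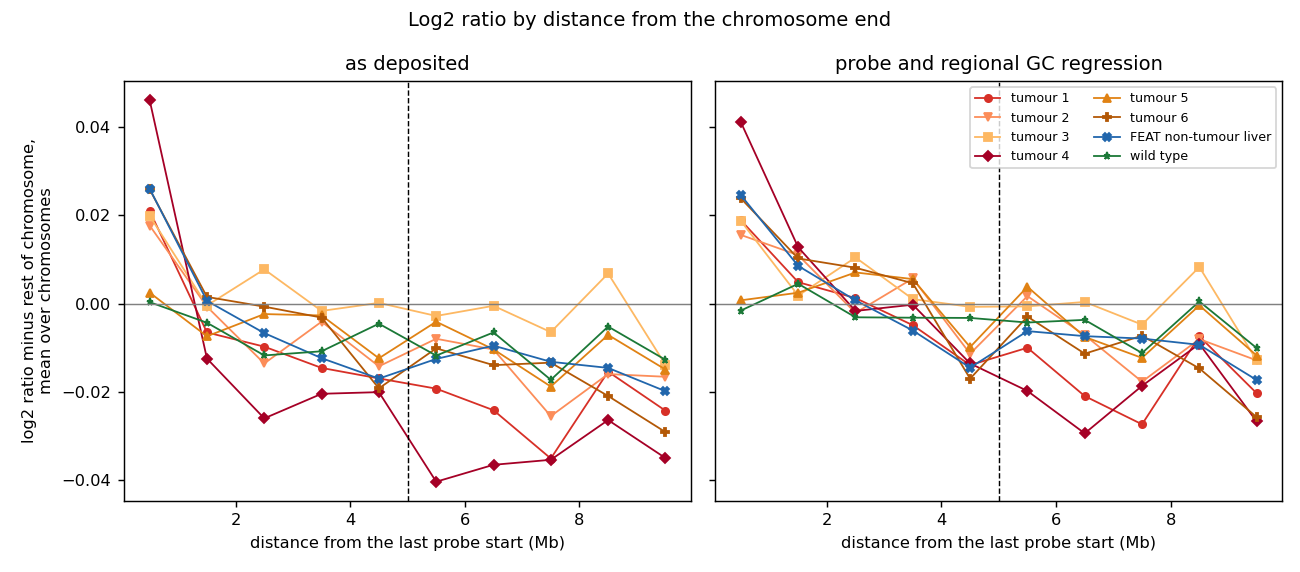
Mean over autosomes of the log2 ratio minus the rest of the chromosome (vertical axis) in steps of 1 Mb from the last position (horizontal axis), 1 line per array, as deposited (left) and after regression on probe and regional GC (right). The dashed line marks the 5 Mb limit. The first step lies at 0.046 in tumour 4 and 0.00034 in the wild type as deposited, and most later steps lie below 0.

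Genes with roles in cancer, imprinted growth control, telomere maintenance and liver metabolism lie in these windows. Of 49 genes on 4 lists, 25 had at least 1 array position inside a terminal window, 10 of them a single position, and 14 of the 25 lie at the end of chromosome 7. Values below are the mean of a gene's positions minus the rest of its chromosome. A limma fit over 24508 named genes called 0 genes different between tumours and non-tumour livers (0%), with 713 at an unadjusted p under 0.05 (2.91%), 41 of 1369 genes in the windows (2.99%) and 0 of the 25 list genes. The median tumour mean of the 25 was 0.00071, beside -0.017 for all named genes in the windows and -0.012 for all named genes.

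Among the 15 growth and cancer genes, those read by many positions lay close to their chromosome. Erg, a transcription factor of the ETS family with 23 positions at the end of chromosome 16, lay at -0.031 ± 0.024 over the tumours (SD, n = 6), -0.030 in the FEAT non-tumour liver and 0.012 in the wild type. Trp73, the p53 relative on chromosome 4 with 11 positions, lay at 0.025 ± 0.070 in tumours, 0.064 in the FEAT non-tumour liver and 0.0068 in the wild type. Erbb3, a receptor of the EGF receptor family with 5 positions on chromosome 10, was below the rest on all 8 arrays, at -0.36 ± 0.20 in tumours, -0.37 in the FEAT non-tumour liver and -0.071 in the wild type. Ets2, another ETS factor with 3 positions on chromosome 16, was above it on all 8, at 0.32 ± 0.19 in tumours, 0.45 in the FEAT non-tumour liver and 0.10 in the wild type. Gli1, the transcription factor at the end of hedgehog signalling, lay at 0.14 ± 0.047 in tumours, 0.13 in the FEAT non-tumour liver and 0.16 in the wild type.

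The end of chromosome 7 holds the segment that carries the cyclin Ccnd1, the fibroblast growth factor genes Fgf3, Fgf4 and Fgf15, the death-receptor adaptor Fadd and the actin-binding protein Cttn. Cttn, with 4 positions, lay at 0.21 ± 0.13 in tumours, 0.30 in the FEAT non-tumour liver and 0.039 in the wild type. The single Ccnd1 position lay at -0.18 ± 0.10 in tumours, 0.18 in the FEAT non-tumour liver and -0.34 in the wild type, and the single Fadd position at -0.29 ± 0.14, -0.28 and -0.26 in the same order. Fadd was below the rest of its chromosome on all 8 arrays. Hras, a GTPase of the Ras family, had 1 position at 0.18 ± 0.22 in tumours, 0.36 in the FEAT non-tumour liver and 0.041 in the wild type. For all 14 genes at this end, the shift of largest size in the window as a whole was that of tumour 5, which had -0.28 there and -0.26 over the rest of chromosome 7. Trp73 and Zbtb48, a zinc-finger protein that binds telomere repeats, lie in the chromosome 4 end, which stood at -0.24 in tumour 1.

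The imprinted genes of chromosome 7 are expressed from one parental copy and set fetal and placental growth. Kcnq1, a potassium channel gene of the cluster with 40 positions, lay at 0.00071 ± 0.034 over the tumours (SD, n = 6), 0.029 in the FEAT non-tumour liver and 0.027 in the wild type. Igf2, the fetal growth factor, with 3 positions, lay at -0.13, -0.092, -0.15, -0.41, 0.026 and -0.44 in tumours 1 to 6, at -0.78 in the FEAT non-tumour liver and at 0.10 in the wild type. Tumours 4 and 6 were the lowest tumours, and the FEAT non-tumour liver was lower than any. In these arrays the mean rested mostly on 1 of the 3 positions, the Igf2 position printed above. Against the rest of the chromosome, that position lay at -1.08 in tumour 4, -1.43 in tumour 6 and -2.42 in the FEAT non-tumour liver. Phlda2, a gene that restrains placental growth, had 1 position, lowest in the FEAT non-tumour liver, then in tumours 6 and 4. It lay at -0.37, 0.041, -0.25, -0.98, -0.075 and -1.61 in tumours 1 to 6, -3.12 in the FEAT non-tumour liver and 0.042 in the wild type. Around the low Igf2 and Phlda2 positions, the medians of the 10 nearest positions were -0.14 and 0.085 in the FEAT non-tumour liver. These medians are relative to the autosomal median. Cdkn1c, an inhibitor of the cell cycle, had 1 position at 0.25 ± 0.39 in tumours, 0.46 in the FEAT non-tumour liver and 0.49 in the wild type. Ins2 and Ascl2 lay at -0.056 ± 0.11 and -0.23 ± 0.17 in tumours.

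Of the telomere genes, Rtel1, a helicase that opens telomere loops, lies at the end of chromosome 2 with 6 positions, at 0.074 ± 0.10 in tumours, 0.22 in the FEAT non-tumour liver and 0.13 in the wild type. Zbtb48 had 2 positions, at 0.0038 ± 0.079 in tumours, -0.048 in the FEAT non-tumour liver and -0.17 in the wild type. The liver genes were Fasn, the fatty acid synthase on chromosome 11, at -0.11 ± 0.086 in tumours, -0.10 in the FEAT non-tumour liver and -0.33 in the wild type, and Cyp2e1, the ethanol-oxidising cytochrome P450 on chromosome 7, at 0.094 ± 0.25 in tumours, 0.14 in the FEAT non-tumour liver and 0.18 in the wild type. Fasn was below the rest of its chromosome on all 8 arrays.

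Single positions far below 0 were found in the ends, and 2 sets of them are described, by the array in which they were lowest. Values here are log2 ratios relative to the autosomal median, not to the rest of the chromosome. The limit of -2 and the description of both sets were chosen after the values were seen. On 32 of 11264 terminal positions at least 1 array fell below -2, and the lowest array was the FEAT non-tumour liver for 18, tumour 1 for 9, tumour 6 for 3 and tumours 4 and 5 for 1 each. The wild type and tumours 2 and 3 were the lowest array for none. The 18 positions of the FEAT non-tumour liver lay on 11 chromosomes and ranged from -3.39 to -2.02 there. Of these 18, 16 carried a gene name, beside 63.6% of all 11264 terminal positions. At these positions the medians of tumours 1 to 6 were -0.25, -0.13, -0.13, -0.71, 0.056 and -0.76, and that of the wild type was 0.0071. Tumours 4 and 6 were thus partly low where the FEAT non-tumour liver was lowest, and the wild type was not, with values from -0.38 to 0.28. The Nphp4 position, named for a gene of the primary cilium, stood at -1.01, -0.19, -0.16, -1.34, 0.057 and -2.02 in tumours 1 to 6, at -3.39 in the FEAT non-tumour liver and at 0.075 in the wild type. The Igf2 position printed above stood at -0.69, -0.24, -0.33, -1.07, -0.25 and -1.44 in tumours 1 to 6, at -2.43 in the FEAT non-tumour liver and at 0.16 in the wild type. Neighbouring positions did not follow: the median of the 5 on each side was between -0.32 and 0.21 in the FEAT non-tumour liver. Positions below -1.5 in that liver were 34 in the ends (0.303%) and 435 elsewhere (0.209%), so that they were not limited to chromosome ends.

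The 9 positions lowest in tumour 1 lay on 7 chromosomes and close together on the slide. They ranged from -5.39 to -2.03 in tumour 1, and their medians lay between 0.079 and 0.52 on the other 7 arrays. In the layout of the array, of 534 rows and 456 columns, all 9 fell in rows 187 to 212 and columns 299 to 325, an area with 0.292% of the autosomal positions. That area held 173 of the 236 autosomal positions below -1.5 in tumour 1 (73.3%) and had a median of -0.77 there, and between -0.014 and 0.085 on the other 7 arrays. The 18 positions of the FEAT non-tumour liver spread from row 12 to row 525. Without the area, the mean of terminal minus rest in tumour 1 was -0.0065, against -0.0063 with it.

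**Figure D5:**
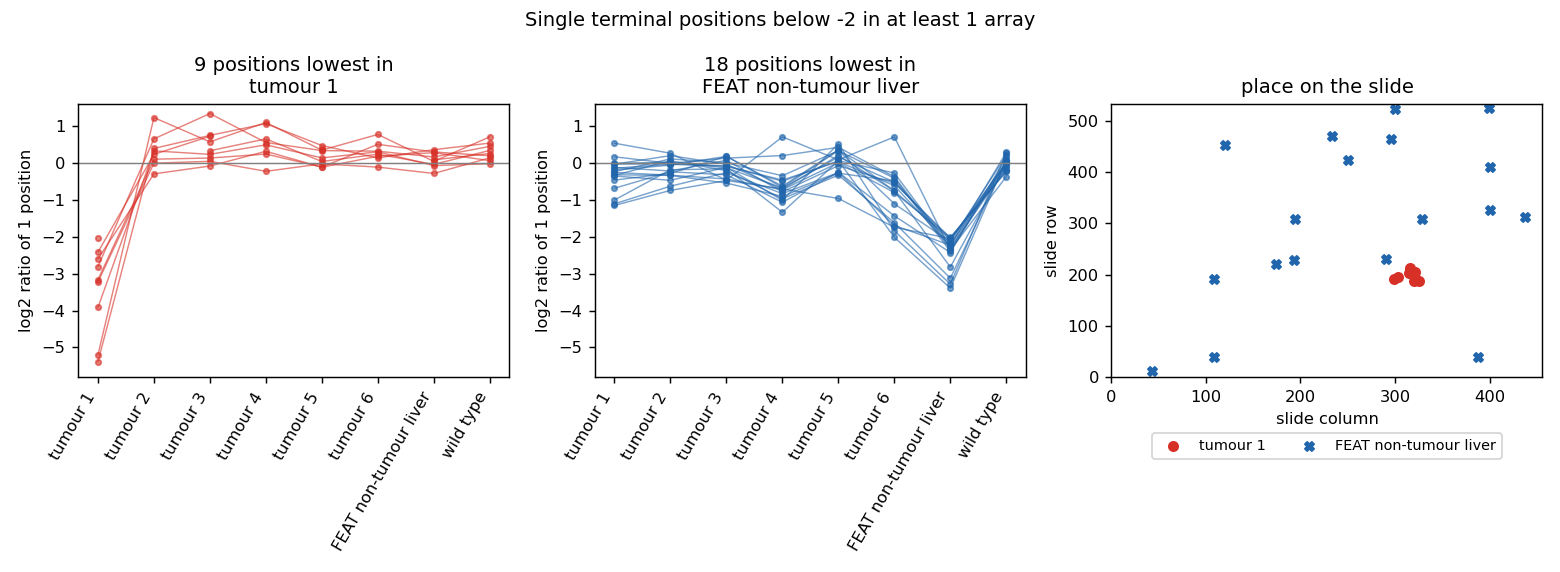
Log2 ratio of single terminal positions below -2 (vertical axis) across the 8 arrays (horizontal axis) for the 9 positions lowest in tumour 1 (left) and the 18 lowest in the FEAT non-tumour liver (middle), 1 line per position, and the place of both sets on the slide (right, row against column). The tumour 1 positions sit between rows 187 and 212, and those of the FEAT non-tumour liver spread from row 12 to row 525.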

How the data were processed

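DNA from 8 livers of mice was measured on 2-colour Agilent 244k arrays, with test DNA in Cy3 and reference DNA in Cy5, per the labels. The deposited values are log2 ratios, and CGH analytics 3.4 was used per the series text. Only the wild-type array has scanner output here, made with Agilent Feature Extraction 9.1.3.1 and protocol CGH-v4_91 per the file headers. On that array the deposited log2 values fell in a straight line with the deposited log10 ratio of red over green (r = -1). Higher therefore means more test than reference DNA. The correlation gives the direction and does not give the scale. For the remaining 7 arrays the dyes of the labels set the direction, and the 28 pairs of arrays correlated between 0.270 and 0.772 over autosomal positions. The autosomal medians as deposited ran from -0.058 to 0.099. The deposited intensity values and the spot flags of the wild-type array (other values in the deposited scanner file, which per the file headers mark saturated, outlying or dim spots) were used for signal levels and for one alternative. Sequence, position and gene name of each position come from that file. No label or file header read here names a genome build. Of 24783 array gene names, 15171 were matched to RefSeq symbols of GRCm38.p6, which was used for names only.

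Values were centred per array on the autosomal median, with no loess or quantile step. Spots with the same probe name were averaged into 1 position, which left 220065 positions from 222705 autosomal spots. Per array, 11134 to 11217 terminal values were present. The number of arrays, 6 tumours and 2 non-tumour livers, limits the precision. Regional GC is the mean GC of array positions within 250 kb, and GC regressions held linear and quadratic terms fitted outside the ends. Windows and genes were tested with limma 3.58.1 in R 4.3.3 and single values with exact tests in Python 3.11.15. The window fits and the difference of end and rest were run on simulated data, and the exact tests on set values. Between the window contrasts, recovery of planted changes was required only for the tumour mean against 0. No gene values were simulated. Windows named in full are the 3 highest and lowest, those called by limma and those at or beyond 0.2 in a tumour. Genes come from 4 lists, and 1 of their members is not reported here. The gene test was added after the data were seen. The alternatives were GC treatment, window size, choice of rest, median, spot filters and leaving out each array. The members and lists were chosen with earlier results of these data known.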

Additional observations from a re-analysis of the deposited data

Results flagged for a closer look

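Of 46 results examined in tumours (the mean, the spread, 19 ends and 25 genes), 3 had 1 tumour far from the other 5 by Dixon's test, and chance flags about 1 in 20. The end of chromosome 14 stood at -0.043 below the rest in tumour 1, against 0.0094 to 0.021 in the other 5, and tumour 1 was also the tumour in which the rest of chromosome 14 was low, at -0.23. The single Ccnd1 position stood at 0.016 in tumour 6, against -0.26 to -0.18 in the other 5. Cttn stood at -0.045 in tumour 2, against 0.24 to 0.32 in the other 5.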

How the results depend on the processing

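The mean of terminal minus rest in tumours had no settled sign. It was 0.00085 (exact p = 0.750) after regression on probe GC, 0.0053 (exact p = 0.0312) after regression on probe and regional GC, 0.00016 with the rest weighted to the GC classes of the end, 0.0092 (exact p = 0.0625) for ends of 2 Mb and 0.016 (exact p = 0.0312) against the adjoining 5 Mb alone, and stayed below 0 in the other 12 settings. Leaving out each tumour gave -0.0042 to -0.0014. The difference between tumours and non-tumour livers was -0.00040 with medians, -0.0014 for ends of 10 Mb and -0.00064 without the wild type, and 0.00025 to 0.0031 without each tumour; its exact p-values ran from 0.214 to 1.00. The spread over chromosomes kept its direction in all 19 settings (0.0044 to 0.012 without each tumour). Without chromosomes 17 and 18, an alternative added after seeing the data, the mean in tumours was -0.0086 (exact p = 0.0938).

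Windows called against the rest of the chromosome in tumours were 538 of 1195 at 2 Mb and 146 of 247 at 10 Mb, where the number of windows differs by construction, and 184 to 296 of 485 without each tumour. No setting called a window or a gene between tumours and non-tumour livers. Ends at or beyond 0.1 in a tumour were 21 and at or beyond 0.3 were 1, against 12 at 0.2. Among 16 settings the call held in 16 for the end of chromosome 17, in 15 for those of chromosomes 3, 15 and 18, in 14 for 5 and 9, in 13 for 7, in 12 for 4 and in 5 for 12 and 19. At 10 Mb the end of chromosome 12 turned to -0.017, and that of chromosome 7 was 0.00012 after both GC regressions; for chromosome 12 the cause was not tested. Without GC regression, the end of chromosome 19 was 0.0078 (limma adjusted p = 0.237) with the first 5 Mb left out of the rest. With medians it was 0.0037 (limma adjusted p = 0.707). The first 5 Mb of chromosome 19 lay below the rest on every array, from -0.12 in tumour 4 to -0.013 in tumour 3. Window counts were not run for the GC weighting or the adjoining 5 Mb. No paired analysis was possible because the groups share 1 replicate number, given in accession order. Noise of single positions, 0.22 to 0.49, and 1 array for each non-tumour liver limit what can be seen.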
